A study of Mus musculus with 2 samples.

Results

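The genes described here encode the enzymes that build cholesterol and fatty acids in animal cells, together with the sterol-sensing proteins that control them. The 34 genes were chosen by name from the known pathways, and 31 of them had an entry among the 12684 genes of the table. Hmgcs1, Acss2 and Scd1 were not analysed here. The genes were followed in endothelial cells (EC) of the mouse aorta-gonad-mesonephros region (AGM), the embryonic tissue in which blood stem cells first emerge from hemogenic endothelium. GFP-depleted EC were the CD31+CD117-CD45- cells without GFP from E10.5 embryos that carry a Runx1+23GFP transgene, in which the +23 enhancer of Runx1 drives GFP. Bulk EC were CD31+CD117-CD45- cells of WT littermates of the same age, so the groups also differed in the presence of the transgene. The group names follow the labels and the study's methods, but its results text describes GFP-positive cells set against vascular EC, a conflict that was not resolved and that bears on what every ratio below compares. RNA was sequenced from 1 library per group and reported as RPKM, a read count scaled by gene length and by library size. With 1 library per group no test was possible, and every difference below is between these libraries and has no replicate check.

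Cholesterol is made from acetyl-CoA through mevalonate, which is phosphorylated and decarboxylated to isoprene units, joined to squalene, and closed and trimmed to the sterol. Fatty acids are made from the same acetyl-CoA by carboxylation and repeated addition of malonyl units, then elongated and desaturated. Both branches are under the SREBP transcription factors, which are held in the endoplasmic reticulum by Scap and the Insig proteins when sterols are plentiful. Endothelial cells also take up cholesterol from lipoproteins, so synthesis is 1 of their sources.

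Read depth was recovered from the spacing of the RPKM values in short features. For reads of an assumed 100 bases it came to about 14600000 reads for GFP-depleted EC, against 109800000 for bulk EC. The median gene rested on 420 reads in GFP-depleted EC, against 3490 in bulk EC. The counting intervals given below are exact (Clopper-Pearson, 95%) and cover counting error only. They treat reads as independent, whereas the cDNA was amplified, so the true error may be wider. Of the 8 endothelial markers, 0 differed by more than 1.5 fold, and their summed level was 1322 RPKM in GFP-depleted EC and 1192 RPKM in bulk EC. Of 12 hematopoietic markers, 7 had an entry and 6 of these were higher in bulk EC, where their summed level was higher too (346 RPKM in GFP-depleted EC and 1702 RPKM in bulk EC). Most of each sum came from Pf4 (70.3 RPKM in GFP-depleted EC and 1112 RPKM in bulk EC) and Hbb-y (270 RPKM and 544 RPKM). Ptprc, Spi1, Gfi1, Klf1 and Csf1r were not analysed here. Of the 5 mesenchyme markers with an entry, 1 was higher in GFP-depleted EC and 4 were higher in bulk EC (15.2 RPKM summed in GFP-depleted EC and 30.7 RPKM in bulk EC). Runx1 itself was low in both, at 0.62 RPKM in GFP-depleted EC and 0.66 RPKM in bulk EC. Fewer cells of a type and less RNA per cell cannot be told apart in such bulk libraries.

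The pathway was expressed in both populations. The 31 genes summed to 1174 RPKM in GFP-depleted EC and 1151 RPKM in bulk EC, and 21 of them lay above the median level of the table, 7.65 RPKM. Of the set, 3 genes exceeded 100 RPKM in both libraries, namely Fdps, Fdft1 and Elovl1, and 5 stayed under 5 RPKM in both, namely Idi1, Srebf1, Scap, Acaca and Lpin1. The median log2 ratio of GFP-depleted EC over bulk EC, computed after adding 0.3 RPKM to both values, was -0.07 over the 31 genes and -0.02 over all genes. Their median absolute log2 ratio was 0.27, against 0.41 over all genes. The set was better expressed than all genes, with 26 of the 31 at a mean of at least 5 RPKM, against 7491 of 12684. This comparison and the shares of all genes given below were not matched for level.

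A gene was counted as higher in a library when it had at least 0.3 RPKM in 1 library and a plain ratio above 1.5. By this rule 1 of the 31 genes, Sc5d, was higher in GFP-depleted EC (3.23%, against 15.3% of all genes), and 6 were higher in bulk EC (Fads2, Srebf1, Mvk, Mvd, Fasn and Sqle; 19.4%, against 23.6% of all genes). The share higher in GFP-depleted EC was thus below that of all genes, and the share higher in bulk EC was near it. The other 24 genes stayed within 1.5 fold. The hematopoietic markers differed in the same direction as the 6 genes, and their part in those differences was not tested.

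**Figure D1:**
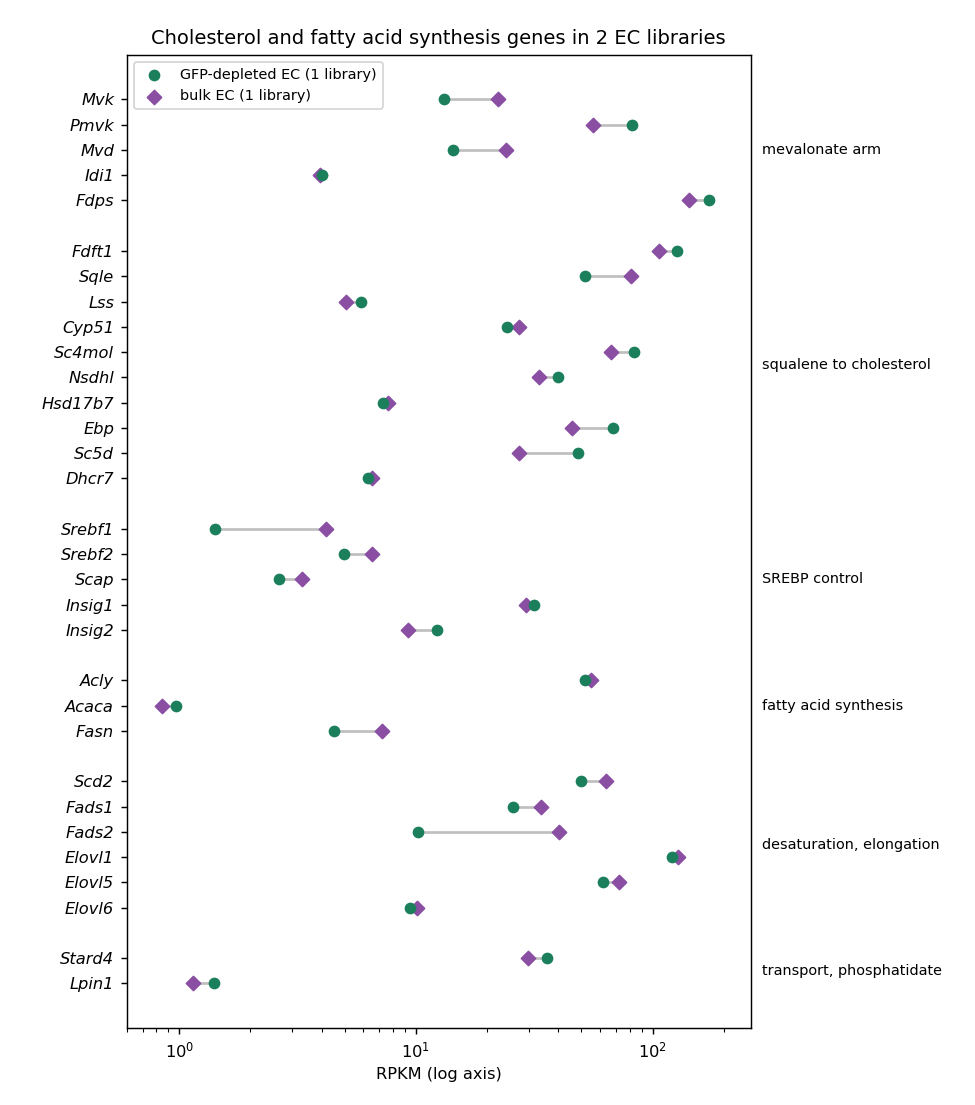
RPKM (log axis) of each of the 31 genes in the GFP-depleted EC library (green circles) and the bulk EC library (purple diamonds), grouped by role. Fads2 (10.2 and 40.1 RPKM) and Srebf1 (1.41 and 4.19 RPKM) are the most separated pairs, and most of the others nearly touch.

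The first enzymes after mevalonate did not move together. Mvk, the kinase that phosphorylates mevalonate (mm9 chr5:114894315-114910574), had 13.1 RPKM in GFP-depleted EC and 22.3 RPKM in bulk EC, and was 1.71 times higher in bulk EC (interval 1.56 to 1.87). Pmvk, which adds the next phosphate, ran the other way with 81.8 RPKM in GFP-depleted EC and 56.2 RPKM in bulk EC, a 1.46-fold difference (interval 1.38 to 1.53) just inside the threshold. Mvd, the decarboxylase that follows (mm9 chr8:124957504-124967290), had 14.3 RPKM in GFP-depleted EC and 24.0 RPKM in bulk EC, and was 1.68 times higher in bulk EC (interval 1.51 to 1.87). Thus consecutive steps lay on opposite sides of a ratio of 1. Idi1, which isomerizes the isoprene unit, had 4.02 RPKM in GFP-depleted EC and 3.95 RPKM in bulk EC. Fdps, which joins isoprene units to farnesyl pyrophosphate, was the most abundant gene of the set, with 173 RPKM in GFP-depleted EC and 143 RPKM in bulk EC.

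Of the 10 enzymes from squalene to cholesterol, 6 had the higher value in GFP-depleted EC, as did 6162 of all 12684 genes. Dhcr7 joined the 6 after GC correction, and Dhcr7 and Hsd17b7 did after quantile scaling. Fdft1, the squalene synthase, had 127 RPKM in GFP-depleted EC and 107 RPKM in bulk EC. Sqle, the epoxidase that adds the first oxygen to squalene and is a known control point of the branch (mm9 chr15:59146667-59162747), had 52.0 RPKM in GFP-depleted EC and 81.5 RPKM in bulk EC. It was 1.57 times higher in bulk EC (interval 1.52 to 1.62), and it was the only gene of the squalene-to-cholesterol steps past the threshold in that direction. Lss, which closes the ring to lanosterol, had 5.86 RPKM in GFP-depleted EC and 5.06 RPKM in bulk EC. Cyp51, the demethylase that acts on lanosterol, had 24.2 RPKM in GFP-depleted EC and 27.3 RPKM in bulk EC.

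Removal of the remaining methyl groups is shared by Sc4mol (now named Msmo1), Nsdhl and Hsd17b7. Sc4mol had 83.8 RPKM in GFP-depleted EC and 66.6 RPKM in bulk EC. Nsdhl had 39.7 RPKM in GFP-depleted EC and 33.0 RPKM in bulk EC, and Hsd17b7 had 7.24 RPKM in GFP-depleted EC and 7.61 RPKM in bulk EC. These 3 genes stayed well within the threshold. The late steps move and reduce double bonds of the sterol rings. Ebp, the isomerase, had 67.9 RPKM in GFP-depleted EC and 45.7 RPKM in bulk EC, a 1.49-fold difference (interval 1.42 to 1.56) that fell just short of the threshold. Sc5d, the desaturase that acts after Ebp (mm9 chr9:42062222-42072329), had 48.6 RPKM in GFP-depleted EC and 27.2 RPKM in bulk EC, and was 1.79 times higher in GFP-depleted EC (interval 1.69 to 1.89). Before correction for GC content, these neighbouring steps had the highest ratios of GFP-depleted EC over bulk EC in the set, whereas after it Pmvk had the highest (log2 ratio 0.80). Dhcr7, the reductase of the last step, had 6.31 RPKM in GFP-depleted EC and 6.53 RPKM in bulk EC. Over the 15 mevalonate and sterol genes with an entry the median log2 ratio was 0.20, with 9 above 0 and 6 below. This median stayed above 0 after GC correction (0.16) and quantile scaling (0.23). Over all genes the median was -0.02, and 0.02 and 0.07 after these scalings. The 10 housekeeping genes compared had a median of 0.28, with 9 above 0, and 0.25 after GC correction. The positive median was thus not particular to the sterol genes.

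Among the genes that control the pathway, Srebf1 stood apart. Srebf1, which encodes the SREBP forms that act mainly on fatty acid genes (mm9 chr11:60012591-60034106), had 1.41 RPKM in GFP-depleted EC and 4.19 RPKM in bulk EC. It was 2.97 times higher in bulk EC (interval 2.47 to 3.61), on about 116 reads in GFP-depleted EC, against 2589 in bulk EC. Srebf2, whose product acts mainly on cholesterol genes, had 4.98 RPKM in GFP-depleted EC and 6.51 RPKM in bulk EC, within the threshold. Scap, the escort protein of the SREBPs, had 2.65 RPKM in GFP-depleted EC and 3.31 RPKM in bulk EC. The Insig proteins retain Scap when sterols are high. Insig1 had 31.6 RPKM in GFP-depleted EC and 29.2 RPKM in bulk EC, and Insig2 had 12.2 RPKM in GFP-depleted EC and 9.30 RPKM in bulk EC. Insig1 is also a well-known target of the SREBPs, and it stayed within the threshold.

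Most fatty acid genes had the lower value in GFP-depleted EC. Of the 9 with an entry, 8 had a log2 ratio below 0 (6522 of all 12684 genes did), with a median of -0.23. Acly and Elovl1 turned positive after GC correction, and Acly and Elovl6 after quantile scaling. The 19 other fatty acid genes compared below had the same median, with 13 below 0, so the direction was not particular to the set. Of the 9, 2 passed the threshold toward bulk EC (22.2%, against 23.6% of all genes), and 1 did after GC correction (11.1%, against 19.6%), so these counts show no excess over all genes. Acly, which makes cytosolic acetyl-CoA from citrate for both branches, had 52.0 RPKM in GFP-depleted EC and 55.2 RPKM in bulk EC. Acaca, the acetyl-CoA carboxylase, was low at 0.97 RPKM in GFP-depleted EC and 0.84 RPKM in bulk EC. Fasn, the fatty acid synthase (mm9 chr11:120667272-120685861), had 4.52 RPKM in GFP-depleted EC and 7.18 RPKM in bulk EC. It was 1.59 times higher in bulk EC, but its interval (1.46 to 1.72) reached below the threshold.

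All 6 desaturases and elongases of the set with an entry had the lower value in GFP-depleted EC, as did 6522 of all 12684 genes. Elovl1 turned after GC correction and Elovl6 after quantile scaling. Fads2, which carries out the first desaturation of dietary polyunsaturated fatty acids (mm9 chr19:10137286-10176010), had 10.2 RPKM in GFP-depleted EC and 40.1 RPKM in bulk EC. This was the widest gap of the set, 3.92 times higher in bulk EC (interval 3.43 to 4.49), on about 226 reads in GFP-depleted EC, against 6641 in bulk EC. Fads1, the desaturase of a later step of the same route (mm9 chr19:10257429-10271360), lies on the same chromosome and differed far less, with 25.6 RPKM in GFP-depleted EC and 33.8 RPKM in bulk EC. Scd2, a stearoyl-CoA desaturase that makes monounsaturated fatty acids, had 49.9 RPKM in GFP-depleted EC and 63.5 RPKM in bulk EC. The elongases were closer still. Elovl1, which extends saturated very long chains, had 121 RPKM in GFP-depleted EC and 128 RPKM in bulk EC. Elovl5, which extends polyunsaturated chains, had 61.7 RPKM in GFP-depleted EC and 72.3 RPKM in bulk EC. Elovl6, which extends palmitate, had 9.42 RPKM in GFP-depleted EC and 10.1 RPKM in bulk EC.

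The last 2 genes lie at the edge of the pathway. Stard4, a carrier of cholesterol between membranes, had 35.8 RPKM in GFP-depleted EC and 29.8 RPKM in bulk EC. Lpin1, a phosphatidate phosphatase of glycerolipid synthesis, had 1.40 RPKM in GFP-depleted EC and 1.15 RPKM in bulk EC. For 6 genes (Idi1, Hsd17b7, Dhcr7, Acaca, Elovl6 and Lpin1) the counting interval held a ratio of 1, so no difference beyond counting error was seen. For 6 others (Mvk, Mvd, Sqle, Sc5d, Srebf1 and Fads2) the whole interval lay past 1.5 fold. The shares of all genes for these counts were not computed, so neither count can be called high or low.

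The ratio between the libraries ran with base composition, in all genes and in this set. When the 10382 protein-coding genes with a mean of 1 RPKM or more were split into 10 bins by exonic GC content, the median log2 ratio was 0.20 in the bin with the lowest GC content (median 40.0%) and -0.64 in the bin with the highest (median 58.9%). Spearman's rho between log2 ratio and GC content was -0.38 across these genes and -0.52 across the 31, with both values of every gene taken from the same pair of libraries. All 7 genes of the set with at least 55% GC (Mvk, Mvd, Srebf1, Srebf2, Scap, Fasn and Fads2) had a log2 ratio below 0 before correction for GC content, and 5 of them were among the 6 counted as higher in bulk EC. Sqle, at 47.5% GC, was the other. Of the 16 genes under 50% GC, 1 (Sc5d) was higher in GFP-depleted EC and 1 (Sqle) in bulk EC, and of the 8 in between 0 passed the threshold in either direction. The bins of protein-coding genes with a median GC content of 56.1% and 58.9% had median log2 ratios of -0.38 and -0.64. Shares of all genes within the GC ranges used for the set were not computed, so these counts are not read as a trait of the set.

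After subtraction of the trend with GC content, 2 of the 31 genes were higher in GFP-depleted EC (Pmvk and Sc5d; 6.45%, against 16% of the 12144 genes with a GC value), and 3 were higher in bulk EC (Fads2, Sqle and Srebf1; 9.68%, against 19.6% of those genes). Both shares were below those of all genes. Thus 4 genes passed the threshold in the same direction before and after the correction, namely Fads2, Srebf1, Sqle and Sc5d. The log2 ratio of Fads2 was -1.94 before and -1.58 after the correction, and that of Srebf1 was -1.39 before and -0.84 after. Sqle had -0.64 before and -0.71 after, and Sc5d had 0.83 before and 0.71 after. Mvd, the richest in GC of the set at 59.3%, had -0.73 before and -0.08 after, and Fasn had -0.63 before and -0.14 after. Mvk had -0.76 before and -0.38 after. In all, 6 genes changed sign (Idi1, Dhcr7, Srebf2, Scap, Acly and Elovl1), none of them past the threshold on either scale. Whether the GC trend arose in the cells or in library preparation was not tested.

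**Figure D2:**
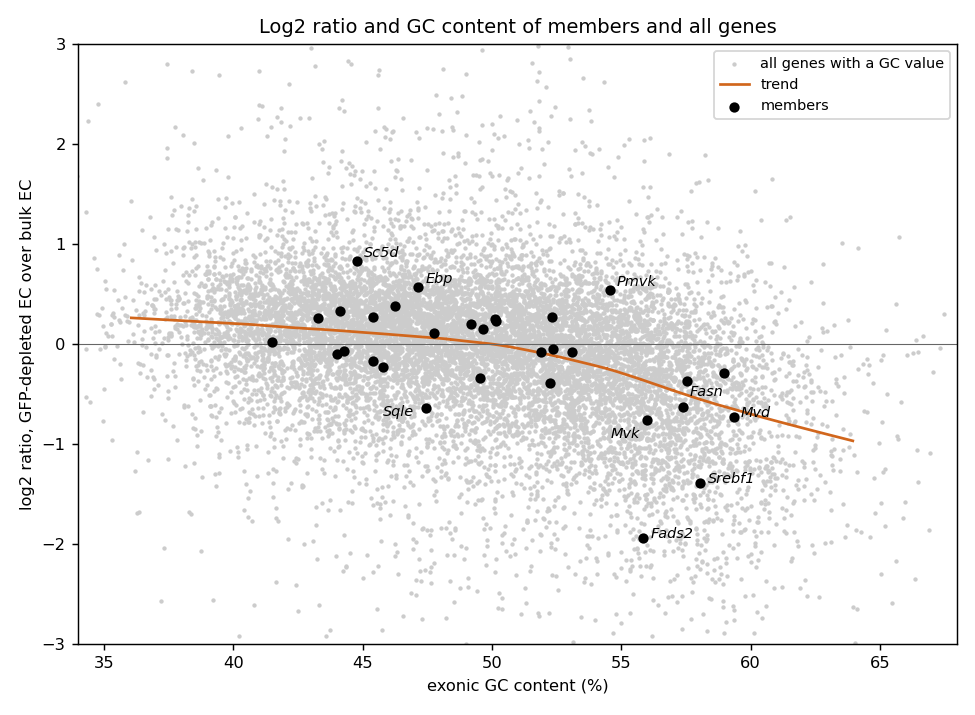
Log2 ratio of GFP-depleted EC over bulk EC (vertical) against exonic GC content in percent (horizontal), for all genes with a GC value (grey), the fitted trend (orange line) and the 31 genes (black), the genes of interest named. Genes beyond the axis limits are not drawn. The trend falls with GC content, Mvd and Fasn lie near it, and Fads2 and Srebf1 lie below it.

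**Figure D3:**
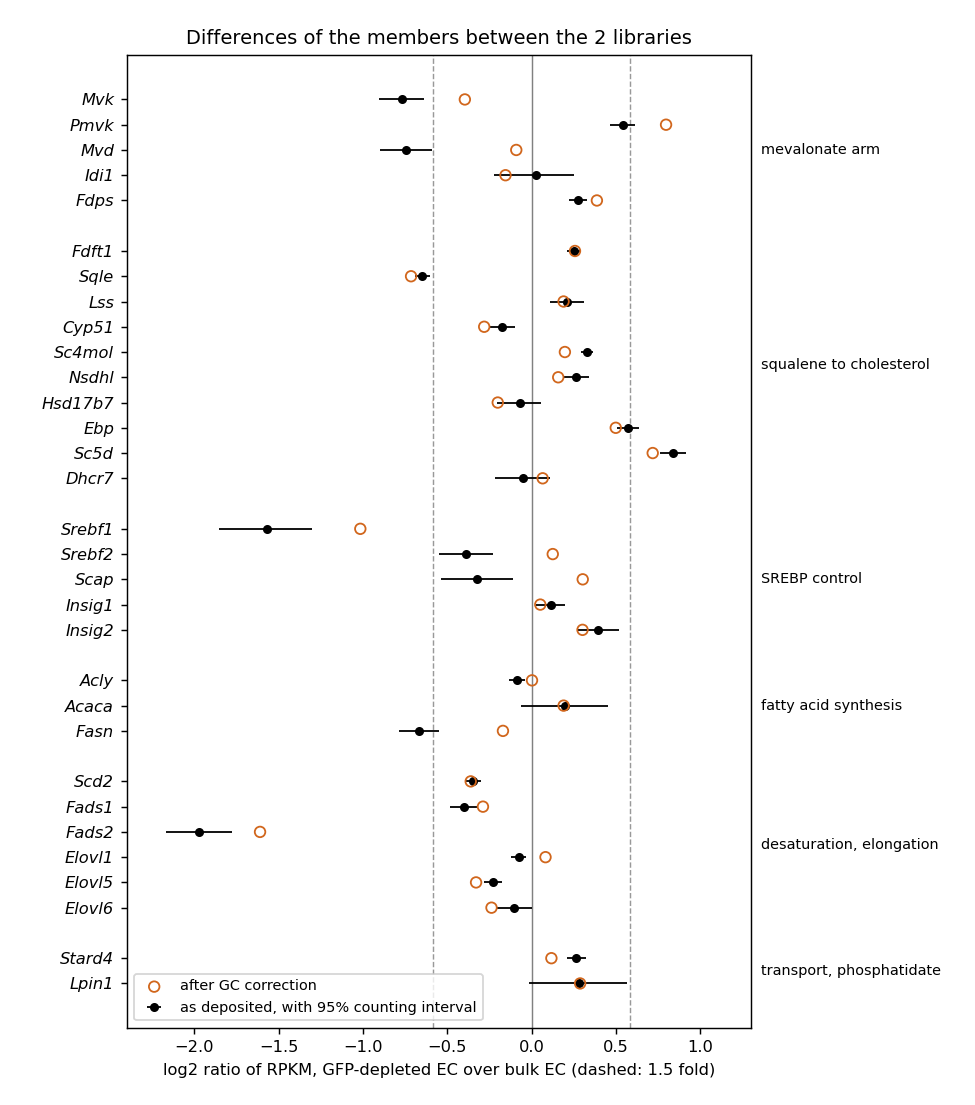
Log2 ratio of the plain RPKM values, GFP-depleted EC over bulk EC, for each of the 31 genes (black points) with its 95% counting interval (bars) and after subtraction of the GC trend (open orange circles), nothing being added to the values. Dashed lines mark 1.5 fold. Fads2, Srebf1 and Sqle lie left of the lower line on both scales and Sc5d right of the upper line on both, whereas Mvk, Mvd and Fasn return inside after the correction.

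The levels of 5 genes are uncertain because over 50% of their transcript occurs again, nearly identical, elsewhere in the genome. The share was 94.1% for Fdps, 86.5% for Idi1, 85.0% for Acaca, 76.7% for Insig1 and 56.3% for Fdft1. None of the 5 passed the threshold, and how the reads of such genes were assigned is not given in the sources used here. In addition, 26.9% of the exonic bases of Fdft1 overlap Ctsb, a lysosomal protease gene on the other strand that had 346 RPKM in GFP-depleted EC and 260 RPKM in bulk EC. Of the exonic bases of Scap, 18.9% overlap 5830462I19Rik, a gene on the other strand. Without strand, reads of these overlaps cannot be told apart. The gene model of Fads2 used here for its reads and GC content was shorter than its span in the table. Its read numbers, counting interval and GC-corrected log2 ratio are therefore approximate.

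The promoter letters of the genes past the threshold are shown because sterol genes of mammals are known to pair SREBP sites with CCAAT boxes bound by NF-Y. Of the 31 genes, 25 had a RefSeq promoter window (GRCm38.p6, 250 bases before to 50 after the annotated start). Fdps, Fdft1, Sqle, Scd2, Fads1 and Stard4 had none. A CCAAT box (CCAAT, either strand) was found in 12 of the 12 mevalonate and sterol genes with a window, in 4 of 7 fatty acid genes, in 4 of the 5 control genes and in 20 of the 25 in all, against 41.1% of all 27025 genes with a window. Among genes with a single window the counts were 10 of 10 for the mevalonate and sterol genes and 15 of 19 for the set, against 38.2% of all such genes. A GC box (GGGCGG, either strand) was found in 19 of the 25 and in 38.2% of all genes, and an E-box (CACGTG) in 6 of the 25 and in 8.09% of all genes. The 27025 genes were not limited to the 12684 analysed here. They were also not matched to the set in promoter base composition. The part of expression and base composition in these differing shares was not tested. The SRE-like element TCACNCCAC was found in 0 of the 25 and in 1.44% of all genes, which says only that these letters are not in the windows. The 180 bases before the start of the 5 genes past the threshold with a single window follow, 5′ to 3′ on the strand of the gene, with CCAAT boxes of either strand in capitals.
Mvk (chr5:114444089-114444268, plus strand): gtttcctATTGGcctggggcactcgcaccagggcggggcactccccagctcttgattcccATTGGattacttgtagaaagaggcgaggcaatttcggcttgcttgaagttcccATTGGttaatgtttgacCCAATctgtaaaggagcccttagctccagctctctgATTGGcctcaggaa
Mvd (chr8:122443423-122443602, minus strand): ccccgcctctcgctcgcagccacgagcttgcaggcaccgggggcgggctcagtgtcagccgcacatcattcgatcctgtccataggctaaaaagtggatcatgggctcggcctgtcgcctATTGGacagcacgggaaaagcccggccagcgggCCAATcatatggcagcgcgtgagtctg
Sc5d (chr9:42264301-42264480, minus strand): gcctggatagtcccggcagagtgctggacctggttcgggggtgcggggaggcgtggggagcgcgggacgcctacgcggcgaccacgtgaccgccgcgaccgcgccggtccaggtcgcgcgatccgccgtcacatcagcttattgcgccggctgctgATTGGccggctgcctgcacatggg
Fasn (chr11:120824548-120824727, minus strand): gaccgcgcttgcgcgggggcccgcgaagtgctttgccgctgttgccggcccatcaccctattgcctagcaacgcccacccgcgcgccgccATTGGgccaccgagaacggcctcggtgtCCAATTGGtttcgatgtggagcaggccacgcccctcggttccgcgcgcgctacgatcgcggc
Fads2 (chr19:10101504-10101683, minus strand): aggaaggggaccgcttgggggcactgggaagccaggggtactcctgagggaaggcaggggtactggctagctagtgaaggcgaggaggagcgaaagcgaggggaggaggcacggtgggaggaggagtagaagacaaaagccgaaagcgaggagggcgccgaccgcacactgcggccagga
Whether box number goes with direction cannot be judged here, because Sc5d alone of these 5 genes was higher in GFP-depleted EC. Sqle, without a window, and Srebf1, with more than 1, are not shown. Mvk and Mvd, higher in bulk EC, had 5 and 2 boxes in these bases, Sc5d, higher in GFP-depleted EC, had 1, Fasn had 3 with a pair that overlaps, and Fads2, the gene with the widest gap, had 0.

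The same 2 libraries were compared over 53 other genes of lipid metabolism, of which 46 had an entry. Of these, 7 were higher in GFP-depleted EC (15.2%, against 15.3% of all genes) and 16 were higher in bulk EC (34.8%, against 23.6% of all genes), with a median log2 ratio of -0.18. After GC correction 5 were higher in GFP-depleted EC (10.9%, against 16% of all genes with a GC value), and 12 were higher in bulk EC (26.1%, against 19.6%). The genes that fell back within 1.5 fold were Soat1 and Hsd17b12, higher in GFP-depleted EC before the correction, and Por, Slc25a1, Mid1ip1 and Mlycd, higher in bulk EC before it.

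Genes of sterol handling and sensing held the widest gaps once 0.3 RPKM was added to both values. By the plain ratio, Lpin3 of the fatty acid genes was wider still (7.48 fold, on few reads). Apoe, an apolipoprotein, had 22.3 RPKM in GFP-depleted EC and 152 RPKM in bulk EC, a 6.83-fold difference (interval 6.32 to 7.39). Nr1h2, which encodes an oxysterol-sensing liver X receptor, had 3.76 RPKM in GFP-depleted EC and 24.9 RPKM in bulk EC, a 6.62-fold difference (interval 5.72 to 7.70). Its paralog Nr1h3 had 0.29 RPKM in GFP-depleted EC and 1.18 RPKM in bulk EC, on about 11 reads in GFP-depleted EC. Abca1, a cholesterol exporter and known target of these receptors, had 8.96 RPKM in GFP-depleted EC and 8.92 RPKM in bulk EC. Abcg1, another exporter, had 149 RPKM in GFP-depleted EC and 194 RPKM in bulk EC. Scarb1, a receptor for high-density lipoprotein, had 30.3 RPKM in GFP-depleted EC and 57.4 RPKM in bulk EC. Lcat, a cholesterol-esterifying enzyme of plasma, had 0.30 RPKM in GFP-depleted EC, on about 6 reads, and 0.77 RPKM in bulk EC. In the other direction, Npc2, a lysosomal cholesterol carrier, had 191 RPKM in GFP-depleted EC and 121 RPKM in bulk EC, and Soat1, which esterifies cholesterol for storage, had 36.7 RPKM in GFP-depleted EC and 22.8 RPKM in bulk EC. Hematopoietic markers were higher in bulk EC as well, as given above, and their part in these differences was not tested.

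Of the other sterol synthesis genes, Tm7sf2 and Por passed the threshold, and Tm7sf2 alone did so after GC correction as well. Tm7sf2, a sterol reductase, was 2.18 times higher in bulk EC, and Por, the electron donor of Cyp51, had 12.1 RPKM in GFP-depleted EC and 20.9 RPKM in bulk EC. Among fatty acid genes, Ptplb (now Hacd2), a dehydratase of the elongation cycle, had 12.0 RPKM in GFP-depleted EC and 35.6 RPKM in bulk EC. Fads3, a paralog of Fads1 and Fads2, had 1.40 RPKM in GFP-depleted EC and 3.69 RPKM in bulk EC, so that all 3 Fads genes had the lower value in GFP-depleted EC. The elongases Elovl2 (0.50 RPKM in GFP-depleted EC and 1.81 RPKM in bulk EC) and Elovl7 (1.17 RPKM in GFP-depleted EC and 2.22 RPKM in bulk EC) were also past the threshold, whereas Elovl4 had 1.57 RPKM in GFP-depleted EC and 1.42 RPKM in bulk EC. Acsl5, an acyl-CoA synthetase, had 30.4 RPKM in GFP-depleted EC and 53.9 RPKM in bulk EC, whereas its paralog Acsl3 had 5.46 RPKM in GFP-depleted EC and 2.85 RPKM in bulk EC. The lipins split in the same way. Lpin3 had 0.12 RPKM in GFP-depleted EC, on about 7 reads, and 0.91 RPKM in bulk EC, and Lpin2 had 3.53 RPKM in GFP-depleted EC and 2.06 RPKM in bulk EC. Slc25a1, the mitochondrial citrate carrier, Mid1ip1, an activator of acetyl-CoA carboxylase, and Mlycd, which breaks down malonyl-CoA, were 1.68, 1.70 and 1.64 times higher in bulk EC, with log2 ratios of 0.02, -0.28 and 0.01 after GC correction. Other genes overlap 25.5% of the exonic bases of Mid1ip1 and 15.3% of those of Tm7sf2, so their levels are less certain. Hsd17b12, a ketoacyl reductase of elongation, had 193 RPKM in GFP-depleted EC and 122 RPKM in bulk EC. Oxsm, the mitochondrial ketoacyl synthase, had 1.31 RPKM in GFP-depleted EC, on about 78 reads, and 0.30 RPKM in bulk EC, on about 137. This was the highest ratio toward GFP-depleted EC among the listed lipid genes (interval 3.19 to 5.68). Its bulk EC value was near the minimum of 0.3 RPKM.

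**Figure D4:**
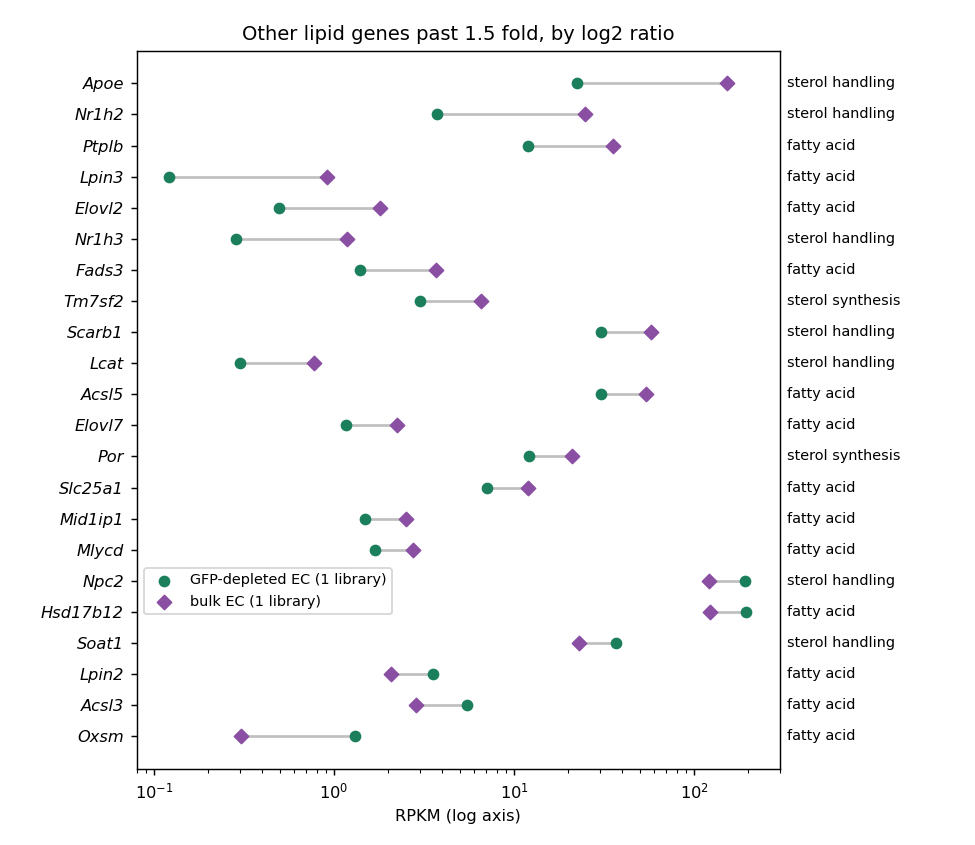
RPKM (log axis) of 22 other lipid genes of sterol synthesis, sterol handling and fatty acid metabolism past 1.5 fold in the GFP-depleted EC library (green circles) and the bulk EC library (purple diamonds), ordered by log2 ratio with the lowest at the top and the class of each gene at the right. Apoe (22.3 and 152 RPKM) and Nr1h2 (3.76 and 24.9 RPKM) are at the top, and Oxsm (1.31 and 0.30 RPKM) is at the bottom.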

How the data were processed

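Endothelial cells were sorted from E10.5 AGM, cDNA was amplified with a SMART kit, and both indexed libraries were sequenced in 1 HiSeq lane with mm9 as the build. BWA 0.5.7 and Cuffdiff appear in the submitters' processing notes with no role. How strand was used, the counter and the annotation release were "not given in the sources used here". Deposited by the authors were RPKM values per gene and library, and their own fold change between groups, which was not used.

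Of 12899 entries, 215 repeats of a symbol were dropped (highest mean kept), leaving 12684 genes, with a lowest mean of 0.5 RPKM. The members and lists were chosen with earlier results of these data known. All members with an entry are named, as are the other lipid genes past 1.5 fold, except for items not reported here. The threshold and the minimum of 0.3 RPKM follow the study.

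In features under 150 bases, 98.9% of values in each library lay within 0.15 of a whole multiple of 1 step (30% by chance), taken as 1 aligned base. Read numbers and counting intervals depend on an assumed read length of 100 bases, the best match of 36, 75 and 100. Of 115 longer features in GFP-depleted EC, 30.4% lay within 0.02 of a whole number of such reads, as did 42.3% of 26 in bulk EC (4% by chance). A length of 50 bases was left out of the choice. It matched equally in GFP-depleted EC (30.4%) and less in bulk EC (38.5%), and would give higher read numbers and narrower intervals. Exon lengths and GC content came from GENCODE M1 on mm9 (12341 identifiers matched, 95.7% of genes with GC content). The GC trend was a lowess curve (fraction 0.3, statsmodels 0.14.6) and near-identical copies were blastn matches (BLAST 2.17.0) of at least 97% identity over at least 100 bases. The procedures were tested on simulated data. Alternatives were a threshold of 2 fold, other added constants and filters, summed repeats, and median, quantile and GC scaling.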

Additional observations from a re-analysis of the deposited data

How the results depend on the processing

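At a threshold of 2 fold, 0 of the 31 members were higher in GFP-depleted EC (839 of the 12684 genes) and 2 in bulk EC (1683 of the 12684 genes). Median scaling gave 2 of the 31 higher in GFP-depleted EC, with Ebp added to Sc5d, and quantile scaling gave 3, with Pmvk added. The counts over the 12684 genes were 1939 as deposited, 2036 after median scaling and 2476 after quantile scaling. In bulk EC, 6 of the 31 were higher after median scaling and 5 after quantile scaling, against 2920 and 2558 of the 12684 genes. GC correction gave 2 members higher in GFP-depleted EC (6.45%, against 16% of genes with a GC value), and 3 members higher in bulk EC (9.68%, against 19.6%). The median log2 ratio of the members, -0.07 as deposited, was 0.068 after GC correction and 0.049 after quantile scaling, where the median of all genes was 0.02 and 0.07. Of all calls, 60.7% were toward bulk EC as deposited, 55.1% after GC correction and 50.8% after quantile scaling. GC correction turned the sign of 6 members and quantile scaling of 4 (Dhcr7, Hsd17b7, Acly and Elovl6), none of them past 1.5 fold. The medians of the mevalonate and sterol genes (0.16 to 0.23) and of the fatty acid genes (-0.29 to -0.17) kept their sign under every alternative run. Other added constants, filters and summed repeats, and 2 alternatives chosen after seeing the data (without members with near-identical copies, and protein-coding genes only), kept each count within 1.5 times. The minimum of 0.3 RPKM removed no gene. No paired analysis was possible because there is a single library on either side. Depth limits the low genes of GFP-depleted EC most, with 116 reads for Srebf1 and 117 for Lpin1.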
